A study of Mus musculus with 24 samples.

Results

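Positive selection in the thymus was followed here in the NODk strain, by setting 3 arrays of early single positive (S+) thymocytes against 6 arrays of pre-selection (PreS) thymocytes, 9 of the 24 arrays of the series. The arrays were taken by their labels. S+ cells were CD4+CD8low CD69+1G12+ and came from TCR mice, which carry the 3A9 T cell receptor as a transgene, and the antibody 1G12 recognises that receptor. PreS cells were CD4+CD8+ and CD69-1G12-, with 3 arrays from TCR mice and 3 from TCR insHEL mice, which also express hen egg lysozyme (HEL) under the insulin promoter, and both were merged into 1 group. NODk is the diabetes-prone NOD background with the H2k haplotype, and all mice were healthy females of 6 to 8 weeks that shared this background and the 3A9 receptor. B10k, the non-autoimmune C57BL10.H2k strain with the same transgenes, gave 3 S+ and 6 PreS arrays of the same kinds and is used below only where the strains are compared. Each array held an independent pool of mRNA from sorted cells, stained in the presence of the transcription inhibitors actinomycin D and α-amanitin, and the RNA went through 2 rounds of in vitro amplification. S+ cells were thus sorted for the transgenic receptor, and PreS cells for the absence of 1G12 staining. The values describe pools and not single mice or cells.

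A thymocyte that expresses both CD4 and CD8 tests its receptor against self peptides on MHC molecules of the thymic cortex. A weak signal rescues the cell from death (positive selection), ends receptor gene rearrangement, switches on CD69 and chemokine receptors that lead to the medulla, and commits a cell restricted to MHC class II to the CD4 lineage. The early double positive cells that enter this test descend from a burst of division, and most cells that have passed it are out of cycle. The 3A9 receptor recognises a HEL peptide on an MHC class II molecule of the H2k haplotype, so that S+ cells of TCR mice without HEL mature as CD4 cells.

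The values were MAS 5.0 signals, a linear measure of hybridization to each probeset of the Affymetrix 430A array, and signals are printed as deposited. Fold changes came from log2 values standardized to the same mean and variance on each array, for the 12838 probesets that reached 32 throughout at least 1 condition of the series, which stood for 7831 genes. Whether groups overlap was judged on the same standardized values. Median signals ran from 31.0 to 44.1 over the 9 arrays. Correlations between replicates ran from 0.843 to 0.951 on the log2 scale, and the number of arrays limits the precision of each fold change.

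The arrays differed in the 3′/5′ signal ratio of Actb and Gapdh, 2 control transcripts with probesets at both ends, whose ratio is known to rise when cDNA is short or RNA is degraded. In S+ cells the ratio was 55.7 for Actb and 57.2 for Gapdh in replicate 1, 30.6 and 40.9 in replicate 2, and 2.49 and 3.63 in replicate 3. In PreS cells it ran from 2.38 to 32.5 for Actb and from 2.99 to 28.9 for Gapdh. S+ replicate 1 thus lay above all 6 PreS arrays for both controls and replicate 2 above 5 for Actb and 6 for Gapdh, while S+ replicate 3 lay with the low PreS arrays. Over both controls the mean log2 ratio was 4.18 ± 2.27 in S+ and 2.98 ± 1.34 in PreS (SD, n = 3 and 6), a difference of 1.21 that did not pass an exact permutation test (two-sided p = 0.321 over 84 regroupings). S+ replicates 1 and 2 correlated at 0.950 with each other and at 0.843 and 0.848 with replicate 3. For this reason the value in each S+ array is given below, and results are given also for S+ replicate 3 alone against PreS. The part of the ratio in the results was not tested.

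**Figure D1:**
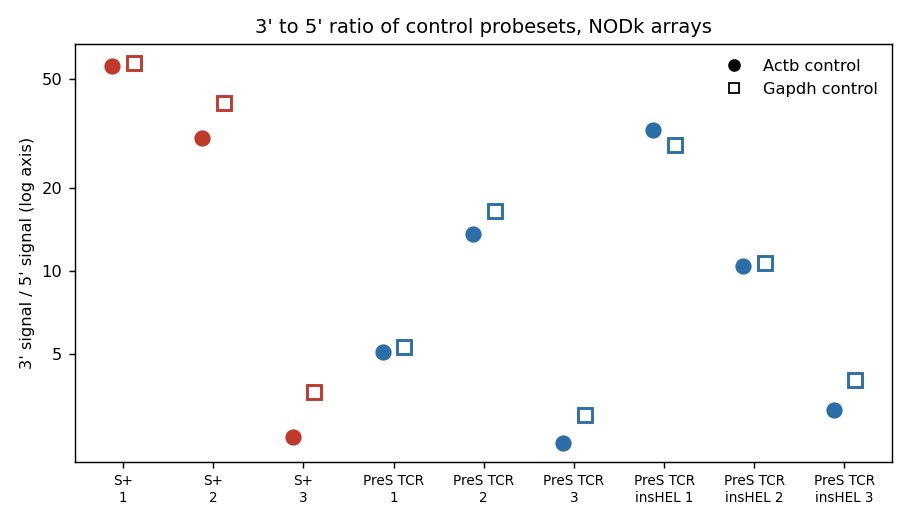
Ratio of the 3′ to the 5′ probeset signal (log axis) for the Actb control (filled circles) and the Gapdh control (open squares) in each of the 3 NODk S+ arrays (red) and 6 NODk PreS arrays (blue). S+ replicates 1 and 2 stand at 30.6 or more, and S+ replicate 3 at 2.49 and 3.63.

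The genes on which the cells were sorted served as a check. Cd4 had a signal of 852.2, 1052 and 1298 in S+ cells, against 361.5 to 676 (median 425.35) in PreS cells. Cd8a stood at 317.6, 179.6 and 680.6 in S+ cells, against 2459.7 to 3386 (median 3098) in PreS cells. The S+ and PreS arrays did not overlap for either gene, and the standardized log2 values gave 1.19 for Cd4 and -3.18 for Cd8a (limma, adjusted p = 0.0069 and 1.9e-04). Cd8b1, the CD8 beta chain, had 39.7, 18.9 and 334 in S+ cells, against 136.5 to 481.9 (median 315.15) in PreS cells. The groups overlapped for Cd8b1 through S+ replicate 3 (-2.43; limma, adjusted p = 0.043), and that array alone gave 0.07. In pools of sorted cells fewer cells with a transcript and less of it per cell cannot be told apart. Cd69 was not analysed here.

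Few probesets passed the threshold between PreS cells of TCR insHEL and of TCR mice. Of 12838 probesets 4 (0.0312%) passed limma's adjusted p of 0.05, all lower with insHEL, and 1333 had an unadjusted p under 0.05. These 4 were probesets of Ppp3ca, the catalytic subunit of calcineurin, of the golgin Golga4, of 1700094D03Rik, and 1 probeset with no single symbol, named after their values were seen. The probeset of Ppp3ca had signals of 3.3, 8.4 and 2.3 in TCR insHEL PreS cells and 43.9, 22.5 and 39.2 in TCR PreS cells. None of the 4 passed the threshold between S+ and merged PreS cells.

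Between S+ and PreS cells 787 probesets (6.13%) were higher in S+ and 1112 (8.66%) were lower, with 3912 at an unadjusted p under 0.05 (limma, Benjamini-Hochberg adjusted p under 0.05). With 1 probeset per gene these were 532 genes higher (6.79%) and 658 lower (8.40%). Fold changes of log2 1 or more were seen in 413 of the 532 and 493 of the 658. S+ arrays lay wholly above the PreS arrays for 677 genes (8.65%) and wholly below them for 656 genes (8.38%), whether or not they passed, and 436 of the 532 and 505 of the 658 that passed were so separated. When each array kept only its MAS 5.0 scaling, without standardization, the counts were 1106 probesets higher and 833 lower, so that 57.0% of calls were higher against 41.4% with standardization, and the median log2 fold change of all probesets was 0.156, against 0.018. Leaving out S+ replicate 1, 2 or 3 gave 360, 344 and 1160 higher and 463, 376 and 1886 lower, and S+ replicate 3 as the only S+ array gave 101 and 105. Of the genes that passed, 531 of the 532 and 655 of the 658 kept their sign with S+ replicate 3 alone. That array is part of the fit that chose these genes, so that the agreement follows in large part from the choice. With the log2 ratio entered as a term in the model 495 and 622 still passed. Only 1 hybridization day held both an S+ and a PreS array, S+ replicate 2 and TCR PreS replicate 2, and the day as a block left 4 probesets higher and 1 lower (946 at an unadjusted p under 0.05). Between these 2 arrays 531 of the 532 and 657 of the 658 had the same sign, though both arrays are also part of the fit.

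The 12 largest rises were led by Gpr83, Bcl3 and Irf4. Gpr83, an orphan G protein-coupled receptor found on regulatory T cells, had signals of 269.2, 327 and 151.8 in S+ cells, against 1.4 to 3.9 (median 2.45) in PreS cells. Bcl3, a nuclear partner of NF-kB subunits, measured 91.1, 127.5 and 140.9 in S+ cells, against 0.8 to 2.2 (median 1.45) in PreS cells. Irf4, a transcription factor induced by TCR signals, measured 234.9, 178.1 and 352.5 in S+ cells, against 2.9 to 11.4 (median 3.55) in PreS cells. In all 3 genes the lowest S+ array was far above the highest PreS array, and the log2 fold changes were 6.40 ± 0.34, 6.04 ± 0.29 and 5.69 ± 0.38 (SE; limma, adjusted p = 3.0e-07, 1.3e-07 and 1.9e-06). Signals under 32 lie below the filter, so that the size of any fold change or strain difference that rests on a group with such signals is not exact. Cd7, a glycoprotein of the T cell surface, had 215.5, 261.8 and 344.9 in S+ cells, against 3.7 to 8.9 (median 5.4) in PreS cells. Bach2, a repressor that restrains effector programs in T cells, stood at 278, 577 and 286.7 in S+ cells, against 0.8 to 30.2 (median 11.55) in PreS cells. Ccnd2, a D-type cyclin, had 951.9, 1825 and 1554 in S+ cells, against 42.3 to 77 (median 44.95) in PreS cells. The groups were apart for each of these genes, with log2 fold changes of 5.40 ± 0.31 for Cd7, 5.29 ± 0.81 for Bach2 and 4.77 ± 0.26 for Ccnd2 (SE; limma, adjusted p = 4.8e-07, 0.0014 and 3.1e-07).

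Tesc, which encodes the calcium-binding protein tescalcin, measured 3859.8, 4286 and 2288 in S+ cells, against 181 to 319.6 (median 206.45) in PreS cells. Slfn1, a Schlafen gene of maturing thymocytes with growth-suppressing activity in mouse T cells, had 219.9, 278.6 and 518.4 in S+ cells, against 3.8 to 70.9 (median 17.7) in PreS cells. Tnfsf11, the ligand by which thymocytes act on RANK of medullary epithelial cells, measured 197, 238.1 and 109.7 in S+ cells, against 6.4 to 27.1 (median 8.7) in PreS cells. The log2 fold changes were 4.01 ± 0.30, 4.12 ± 0.68 and 3.81 ± 0.45 (SE; limma, adjusted p = 6.8e-06, 0.0023 and 2.8e-04), and no S+ array overlapped the PreS arrays. Tesc and Tnfsf11 were lowest among S+ arrays in replicate 3, and Slfn1 was highest there. Ccr7, Zbtb7b and Il7r complete the 12 largest rises and are given with their groups below.

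**Figure D2:**
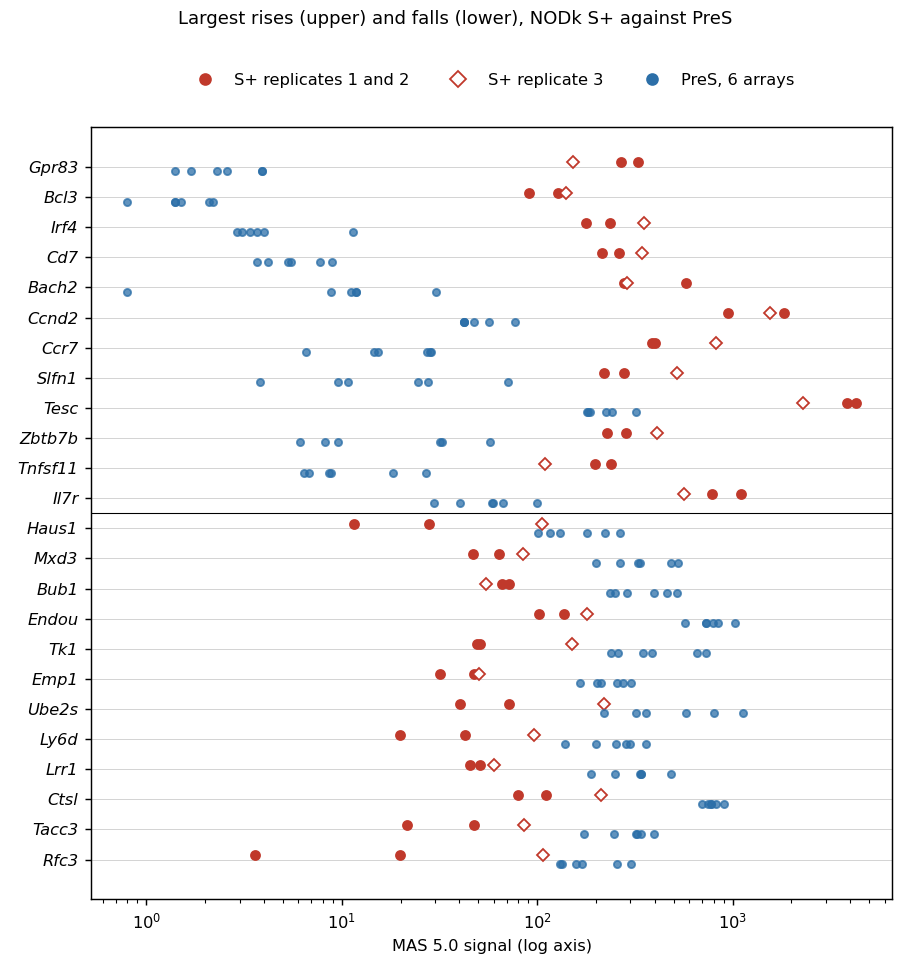
MAS 5.0 signal (log axis) of the 12 genes with the largest rise (upper) and the 12 with the largest fall (lower) in each array, S+ replicates 1 and 2 as filled red circles, S+ replicate 3 as an open red diamond and the 6 PreS arrays as blue circles. For Gpr83 the S+ arrays stand at 151.8 or more and the PreS arrays at 3.9 or less, and for several falls, such as Rfc3 and Haus1, S+ replicate 3 lies nearest to PreS.

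Of the 12 largest falls Bub1, Rfc3, Tk1 and Ly6d also belong to gene lists described below. Lrr1, a ubiquitin ligase adaptor that helps to unload the replisome, had signals of 45.1, 50.9 and 60.3 in S+ cells, against 189.5 to 486.8 (median 337.4) in PreS cells. Bub1, a kinase of the spindle checkpoint, had 72.1, 65.8 and 54.6 in S+ cells, against 236.4 to 522.6 (median 341.7) in PreS cells. Mxd3, a member of the MYC and MAX network, had 47, 63.9 and 85 in S+ cells, against 200.0 to 528.5 (median 332.1) in PreS cells. These 3 fell to a like extent in every S+ array, by 2.78 ± 0.30, 2.60 ± 0.29 and 2.60 ± 0.33 on the log2 scale (SE; limma, adjusted p = 1.4e-04, 1.6e-04 and 4.5e-04). Rfc3, a subunit of the clamp loader of DNA polymerases, had 19.9, 3.6 and 106.7 in S+ cells, against 131.1 to 303 (median 164.3) in PreS cells. Its log2 fold change of -3.51 ± 0.76 (SE; limma, adjusted p = 0.0095) was -0.93 with S+ replicate 3 alone. Haus1, a subunit of the augmin complex of the spindle, showed the same spread, with 27.9, 11.5 and 106.4 in S+ cells, against 101 to 264.7 (median 155.6) in PreS cells. For Haus1 the value was -2.56 ± 0.55 (SE; limma, adjusted p = 0.0091) over the 3 S+ arrays and -0.74 with replicate 3 alone.

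Ctsl, the lysosomal protease cathepsin L, fell to 111.5, 79.8 and 211.5 in S+ cells, against 698 to 904.5 (median 777.35) in PreS cells. Endou, an endoribonuclease, had 137.7, 102.1 and 179.8 in S+ cells, against 571.8 to 1033 (median 761.65) in PreS cells. Emp1, a tetraspan membrane protein, had 47.7, 31.8 and 50.4 in S+ cells, against 166.5 to 301.1 (median 234.35) in PreS cells. The arrays did not overlap, and the log2 fold changes were -2.80 ± 0.28, -2.62 ± 0.26 and -2.66 ± 0.29 (SE; limma, adjusted p = 8.2e-05, 7.8e-05 and 1.6e-04). Tacc3, a protein of spindle microtubules, had 47.6, 21.6 and 85.7 in S+ cells, against 173.6 to 395.3 (median 322.9) in PreS cells. Ube2s, the ubiquitin-conjugating enzyme that extends chains for the anaphase-promoting complex, had 40.5, 72.1 and 220.8 in S+ cells, against 219.2 to 1132 (median 469.5) in PreS cells. The log2 fold changes were -2.92 ± 0.38 for Tacc3 and -2.66 ± 0.56 for Ube2s (SE; limma, adjusted p = 5.2e-04 and 0.0075), and neither of the 2 other probesets of Tacc3 passed, at 0.03 and -0.56. Ly6d and Tk1, which complete the 12, are given below. Of 64 other probesets for 38 of the named genes 5 had the opposite sign, none of them past the threshold, and 28 did not pass where the main probeset did.

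Among genes of single positive maturation 12 of 20 measured members rose and none fell, with a median log2 fold change of 1.16 against 0.046 over all 7831 genes, of which 6.79% rose and 8.40% fell. Ccr7, the receptor that guides selected thymocytes to the medulla, had 386.7, 401 and 819.7 in S+ cells, against 6.6 to 28.6 (median 21.4) in PreS cells. Il7r, the alpha chain of the interleukin 7 receptor, had 1111, 788.8 and 565.4 in S+ cells, against 29.6 to 100.1 (median 59.05) in PreS cells. S1pr1, the receptor for thymic egress, had 183.3, 132.1 and 170.7 in S+ cells, against 26.4 to 39.6 (median 34.1) in PreS cells. Every S+ array was above every PreS array, and the log2 fold changes were 4.69 ± 0.42, 3.79 ± 0.35 and 2.10 ± 0.29 (SE; limma, adjusted p = 5.3e-05, 5.5e-05 and 8.2e-04). Gimap4, a GTPase of lymphocyte survival, had 3147, 3911 and 2219.7 in S+ cells, against 322.2 to 589.3 (median 428.25) in PreS cells. Foxo1, a transcription factor of Il7r and Klf2, had 1066, 1009.7 and 801.7 in S+ cells, against 71.1 to 426.6 (median 205.35) in PreS cells. Their log2 fold changes were 2.93 ± 0.28 and 2.28 ± 0.42 (SE; limma, adjusted p = 7.8e-05 and 0.004). Klf2, which drives S1pr1, had 119.5, 262.1 and 918.7 in S+ cells, against 48 to 122.4 (median 68.95) in PreS cells. Klf2 ran against the ratio of the controls among the S+ arrays, lowest in replicate 1 and highest in replicate 3, and replicate 1 lay within the PreS range (log2 fold change 1.99 ± 0.52, SE; limma, adjusted p = 0.022). Cd52, a glycoprotein of mature lymphocytes, had a log2 fold change of 1.10 and Bcl2, which keeps mature thymocytes alive, of 0.65 (limma, adjusted p = 0.043 and 0.035).

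The 8 members that did not pass included the surface proteins Cd2, Cd5 and Cd6. Cd6 had 186.3, 251.4 and 950.5 in S+ cells, against 99.7 to 597 (median 462.5) in PreS cells. Cd5 had 637.6, 579.9 and 1696 in S+ cells, against 575.5 to 1729 (median 1066) in PreS cells. Both were higher in S+ replicate 3 than in the other S+ arrays, which lay within the PreS range. With S+ replicate 3 alone the median of the 20 genes was 1.43, and 5 passed.

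Of 16 genes of double positive identity 5 fell and none rose (median log2 fold change -0.85), where the shares over all genes were 8.40% and 6.79%. Rag1, a subunit of the recombinase of antigen receptor genes, fell to 362.6, 224.9 and 456 in S+ cells, against 779.7 to 1632 (median 1108) in PreS cells. Rag2, its partner, had 31.2, 25.6 and 21.1 in S+ cells, against 46.2 to 144.9 (median 70.75) in PreS cells. Both fell in every S+ array, with log2 fold changes of -1.83 for Rag1 and -1.82 for Rag2 (limma, adjusted p = 0.002 and 0.0074). Arpp21, an RNA-binding protein of immature thymocytes, had 165, 99.7 and 186.1 in S+ cells, against 370.2 to 715.6 (median 483.75) in PreS cells. Ly6d, a lymphocyte surface antigen, had 42.5, 19.8 and 96.6 in S+ cells, against 138.2 to 360.2 (median 269) in PreS cells. The groups were apart for these genes as well, with log2 fold changes of -1.88 and -2.73 (limma, adjusted p = 9.3e-04 and 0.002). Myb, which supports the survival of double positive cells, had 732.9, 669 and 1122 in S+ cells, against 1382 to 2396 (median 1769) in PreS cells. Its log2 fold change was -1.11 ± 0.24 (SE; limma, adjusted p = 0.0085). Ptcra, the pre-TCR alpha chain, had 52.3, 85.1 and 115.1 in S+ cells, against 91.1 to 159.6 (median 138.15) in PreS cells. The groups overlapped for Ptcra, and the log2 fold change of -0.87 did not pass (limma, adjusted p = 0.064). Dntt, the terminal transferase, Cd24a and Cxcr4 stood at -0.92, -0.89 and -0.84 and did not pass. S+ replicate 3 alone gave a list median of -0.92, with none past the threshold.

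Among lineage factors 1 of 8 rose and none fell (median 0.46), a count too small to set apart from the 6.79% of all genes that rose. Zbtb7b, which encodes the CD4 commitment factor ThPOK, had 228.2, 284.4 and 413 in S+ cells, against 6.1 to 57.1 (median 20.7) in PreS cells. The log2 fold change was 3.93 ± 0.58 (SE; limma, adjusted p = 0.001) and 4.37 with S+ replicate 3 alone. Gata3, which acts upstream of Zbtb7b, had 179.4, 250.2 and 334.7 in S+ cells, against 106.7 to 277.1 (median 190.25) in PreS cells. The groups overlapped for Gata3 (0.33; limma, adjusted p = 0.44).

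Genes induced early by the TCR rose in 12 of 24 cases and none fell (median log2 fold change 0.88), against 6.79% and 8.40% of all genes. Nr4a1, an orphan nuclear receptor that reports TCR signal strength, had 664.2, 618.1 and 691 in S+ cells, against 37.5 to 142.3 (median 89.6) in PreS cells. Egr2, a zinc finger factor downstream of calcineurin, had 924.4, 975.2 and 514.6 in S+ cells, against 71.1 to 239.3 (median 130.15) in PreS cells. Id2, an inhibitor of E proteins, had 740.3, 813.5 and 294.1 in S+ cells, against 45.3 to 108.6 (median 68.55) in PreS cells. The S+ arrays were apart from PreS in each, with log2 fold changes of 2.86 ± 0.32, 2.60 ± 0.38 and 2.93 ± 0.38 (SE; limma, adjusted p = 1.9e-04, 9.7e-04 and 5.4e-04). Zfp36l1, which promotes decay of mRNA, had 1206, 1602 and 631.8 in S+ cells, against 95.3 to 409.3 (median 208.05) in PreS cells. Nab2, a corepressor of EGR factors, had 459.6, 480.8 and 514.4 in S+ cells, against 104.8 to 197.4 (median 141.6) in PreS cells. Their log2 fold changes were 2.46 ± 0.42 and 1.68 ± 0.23 (SE; limma, adjusted p = 0.0025 and 8.0e-04). Egr3, Id3, Myc, Fos and Junb did not pass, at -0.62, -0.47, 0.61, 0.77 and 0.85. With S+ replicate 3 alone the median was 1.22 and 3 passed.

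In the TCR complex and its proximal signalling 2 of 19 genes rose and 1 fell (median 0.09), shares close to the 6.79% and 8.40% of all genes. Without S+ replicate 1 or 2, 1 rose and 1 fell. Fyn, a SRC family kinase of the TCR, had 716, 1387 and 1083 in S+ cells, against 180.8 to 495.8 (median 402.8) in PreS cells. Dgkz, a diacylglycerol kinase that damps TCR signals, had 6648, 8705 and 3395 in S+ cells, against 1746 to 3838 (median 3140.2) in PreS cells. Sla, an adaptor that lowers TCR levels on double positive cells, had 523.5, 565.5 and 1419 in S+ cells, against 2111 to 2897 (median 2415) in PreS cells. Fyn was apart from PreS in every array and Sla was below it in every array, while S+ replicate 3 lay within the PreS range for Dgkz (log2 fold changes of 1.49 for Fyn, -1.71 for Sla and 1.15 for Dgkz; limma, adjusted p = 0.0061, 0.0022 and 0.032). The list median was -0.36 and -0.17 in S+ replicates 1 and 2 and 0.68 in replicate 3, each relative to the PreS mean, so that its sign depended on the array. Csk, a kinase that restrains SRC kinases, showed this most clearly, with 143, 252.1 and 1084 in S+ cells, against 122.5 to 493.9 (median 346.65) in PreS cells.

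NF-kB subunits and targets rose in 7 of 14 cases, Bcl3 among them, and none fell (median 1.64), against 6.79% and 8.40% of all genes. Nfkb2, a subunit of the alternative pathway, had 43.6, 81.7 and 96.5 in S+ cells, against 3.9 to 16 (median 9.2) in PreS cells. Relb, its partner, had 58.5, 106.6 and 213.2 in S+ cells, against 12.4 to 27.1 (median 21.75) in PreS cells. Birc3, an inhibitor of apoptosis and target of NF-kB, had 1021, 867.5 and 540.7 in S+ cells, against 185.4 to 366.5 (median 226.25) in PreS cells. The log2 fold changes were 2.74 ± 0.38, 2.22 ± 0.37 and 1.69 ± 0.30 (SE; limma, adjusted p = 7.7e-04, 0.0024 and 0.0031), with no overlap. Ccl22, a chemokine of dendritic cells and activated T cells, had 244.6, 54.4 and 88.8 in S+ cells, against 3.3 to 37.9 (median 18.65) in PreS cells. Its log2 fold change was 2.68 ± 0.68 (SE; limma, adjusted p = 0.02). Rel, Rela and Nfkbia did not pass, at 0.47, 0.37 and 0.70. S+ replicate 3 alone gave a list median of 1.30, with 3 past the threshold.

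NF-kB dimers bind short elements in promoters, and those near the start sites of the risen Bcl3 and Nfkb2 are shown because these genes belong to the pathway itself. The letters searched were GGGA, any base, TT, any base, CC on both strands, in 250 bases before to 50 after each start in RefSeq (GRCm38.p6), and 12 of the 14 members had such a window. The element was found in 4 of these 12 genes (33.3%) and in 1.38% of all 27025 genes with a window, and the capitals mark it. Counted by window it was in 40.0% of the members' 15 windows, against 1.20% of all 32851. Windows are printed on the strand of the gene, with the sign of that strand, and the match lies at an offset of 2 bases from the start on the other strand in Bcl3 and upstream, at -39 bases, in Nfkb2.
Bcl3, chr7:19822734-19822763 (-): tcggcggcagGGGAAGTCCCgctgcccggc
Nfkb2, chr19:46304688-46304717 (+): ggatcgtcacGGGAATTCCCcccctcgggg
A match in these letters is a description and not a binding site, and 2 of the 5 members with a window that rose held one.

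Interferon-induced genes rose in 9 of 31 cases and none fell, against 6.79% and 8.40% of all genes. The log2 fold change was positive in 29, with a median of 1.06. Oas2, which makes a second messenger for RNA decay, had 124.5, 153.9 and 70.0 in S+ cells, against 6.6 to 29.4 (median 11.45) in PreS cells. Ifit1, which binds foreign RNA, had 345.5, 451.4 and 155 in S+ cells, against 22.7 to 87.8 (median 35.9) in PreS cells. Ifih1, a sensor of double-stranded RNA, had 389.2, 434.1 and 203.4 in S+ cells, against 33.1 to 101.4 (median 53.55) in PreS cells. Each S+ array was above the PreS arrays, with log2 fold changes of 2.86 ± 0.46, 2.66 ± 0.45 and 2.45 ± 0.35 (SE; limma, adjusted p = 0.002, 0.0026 and 9.2e-04), and S+ replicate 3 was the lowest S+ array for each. Parp14, an ADP-ribosyltransferase, had 406.1, 462.3 and 435.6 in S+ cells, against 63.4 to 159.2 (median 106.05) in PreS cells. Here the S+ arrays were alike (1.93 ± 0.26, SE; limma, adjusted p = 7.3e-04). The PreS arrays themselves spread widely on this list, from -0.43 to 0.86 in the list median relative to the PreS mean, with the highest in TCR insHEL replicate 3, against 0.92 to 1.16 in the S+ arrays. With S+ replicate 3 alone none of the 31 passed, with a median of 1.16.

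The response element of interferon-induced genes is shown for Ifit1 and Ifih1, a pair of risen members that hold it. It was searched as GAAA, any 2 bases, GAAA on both strands, and 21 of the 31 members had a window. It was present in 14 of these 21 (66.7%) and in 3.99% of all genes, or in 55.6% of the members' windows and 3.44% of all windows of the same length. In Ifit1 it lies upstream of the start and on the other strand (offset of -85 bases), and in Ifih1 within the transcribed part of the gene (offset of 32 bases).
Ifit1, chr19:34640794-34640823 (+): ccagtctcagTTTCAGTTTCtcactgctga
Ifih1, chr2:62646206-62646235 (-): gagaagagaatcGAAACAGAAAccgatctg
Of the 5 risen members with a window 2 held it.

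Among genes of MHC class I presentation 3 of 13 rose and 1 fell (median -0.08), where the shares over all genes were 6.79% and 8.40%. The list median was -0.45 and -0.31 in S+ replicates 1 and 2 and 0.42 in replicate 3, so that its sign depended on the array, and without replicate 1 or 2 the members that rose were 1 and 0, and none fell. Tapbp, the peptide-loading factor tapasin, had 961.2, 993.5 and 1223 in S+ cells, against 37.1 to 333.3 (median 281.75) in PreS cells. H2-D1, a class I heavy chain, had 463, 583.2 and 1166 in S+ cells, against 37.8 to 489.9 (median 210.5) in PreS cells. B2m, the light chain, had 3276, 3893 and 4124 in S+ cells, against 1665 to 3137 (median 2178) in PreS cells. The log2 fold changes were 2.33 ± 0.54, 1.85 ± 0.56 and 0.88 ± 0.25 (SE; limma, adjusted p = 0.013, 0.044 and 0.032), and H2-D1 overlapped between the groups. None of its 6 other probesets passed and 1 was negative (-0.99), and class I genes are near copies of each other, so that probesets may share signal. Psmb8, a subunit of the immunoproteasome, had 390.4, 459.5 and 1113 in S+ cells, against 1028 to 1721 (median 1153) in PreS cells. It fell by 1.09 on the log2 scale over the 3 S+ arrays (limma, adjusted p = 0.031) and by 0.20 with S+ replicate 3 alone.

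In homing and adhesion 2 of 15 genes rose and 2 fell (median 0.33), where the shares over all genes were 6.79% and 8.40%. These counts are too small to set apart from those shares, and without S+ replicate 1 or 2 no member fell. Cd44, a hyaluronan receptor, had 172.1, 349.3 and 224.7 in S+ cells, against 46.2 to 122.4 (median 60.4) in PreS cells. Itgb2, the beta chain of LFA-1, had 2889.6, 2282 and 2738 in S+ cells, against 424.9 to 1519 (median 1114) in PreS cells. Both were apart from PreS, at 1.61 ± 0.37 and 1.47 ± 0.30 on the log2 scale (SE; limma, adjusted p = 0.013 and 0.0071). Icam2, a ligand of LFA-1, had 220.0, 156.4 and 401.6 in S+ cells, against 394.7 to 579.4 (median 526.6) in PreS cells. Cd47, a signal against phagocytosis, had 935.4, 622.8 and 1322 in S+ cells, against 1496 to 2312 (median 1885) in PreS cells. Icam2 fell by 1.14 and Cd47 by 1.01 (limma, adjusted p = 0.016 and 0.023), but none of 3 other probesets of Cd47 passed, at 0.46, 0.42 and -1.15.

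Cytokine receptors and their regulators rose in 9 of 26 cases and 1 fell (median 0.35), where the shares over all genes were 6.79% and 8.40%. Cish, an inhibitor induced by STAT5, had 388.4, 464 and 248.6 in S+ cells, against 79.2 to 116.3 (median 95.65) in PreS cells. Il27ra, the receptor for interleukin 27, had 240.3, 283.8 and 301.8 in S+ cells, against 36.7 to 103.8 (median 89.8) in PreS cells. Crlf2, the receptor for thymic stromal lymphopoietin, had 488.3, 558.3 and 374.4 in S+ cells, against 75.4 to 271.8 (median 199) in PreS cells. Their log2 fold changes were 1.81, 1.76 and 1.36 (limma, adjusted p = 5.8e-04, 0.004 and 0.019), with no overlap. Socs3, an inhibitor of cytokine signals, had 111.1, 98.6 and 110.5 in S+ cells, against 21 to 59.6 (median 37.2) in PreS cells. Its log2 fold change was 1.39 (limma, adjusted p = 0.025). Ifngr1, a chain of the interferon gamma receptor, had 322, 317.7 and 547.6 in S+ cells, against 578.8 to 1209 (median 970.3) in PreS cells. Ifngr1 fell by 1.26 (limma, adjusted p = 0.016), and Il2ra did not pass, at -0.50. The list median was 0.030 and 0.14 in S+ replicates 1 and 2 and 0.80 in replicate 3. The 9 that rose became 4 without S+ replicate 1, 3 without S+ replicate 2 and 0 with S+ replicate 3 alone, and the member that fell no longer passed in any of these.

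In the BCL2 family 1 of 9 rose and 1 fell (median -0.012), where the shares over all genes were 6.79% and 8.40%, and none rose without S+ replicate 1 or 2. Bcl2l11, which encodes the killer protein BIM, had 2261, 2581 and 1146 in S+ cells, against 403.5 to 1532 (median 722.85) in PreS cells. Bid, a death agonist, had 51.3, 44.8 and 100.3 in S+ cells, against 111.3 to 266.8 (median 179.3) in PreS cells. Bid lay below PreS in every S+ array (-1.73 ± 0.31, SE; limma, adjusted p = 0.0033), while Bcl2l11 overlapped PreS through S+ replicate 3 (1.39 ± 0.42, SE; limma, adjusted p = 0.041). Another probeset of Bcl2l11 rose as well (1.52; limma, adjusted p = 0.0049), but its remaining probesets, at 0.47, 0.61 and 0.59, did not pass.

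Genes of regulatory T cells and costimulation rose in 9 of 16 cases, Gpr83 and Tnfsf11 among them, and 1 fell (median 1.40). Over all genes 6.79% rose and 8.40% fell. Of the 21 members of this list 19 had a probeset of 1 symbol on the array and 16 met the signal filter. This left out Foxp3, Ikzf2, Lrrc32, Btla and Lag3. Izumo1r, which encodes the folate receptor FR4, had 537.9, 535.1 and 541.2 in S+ cells, against 51.8 to 89.4 (median 76.55) in PreS cells. Tnfrsf9, a costimulatory receptor of the TNF family, had 243.4, 170.3 and 312.7 in S+ cells, against 10.3 to 56.3 (median 46.65) in PreS cells. Tnfrsf4, another of that family, had 555.6, 470.9 and 460.2 in S+ cells, against 35.8 to 121.2 (median 103.3) in PreS cells. The S+ arrays were apart from PreS and for Izumo1r nearly equal, with log2 fold changes of 2.80 ± 0.21, 2.63 ± 0.46 and 2.42 ± 0.31 (SE; limma, adjusted p = 7.2e-06, 0.0031 and 4.9e-04). Ikzf4, Icos, Tnfrsf18 and Slamf1 also rose, at 2.27, 1.78, 1.49 and 1.31. Slamf6, a receptor of thymocyte contacts, had 92.4, 64.5 and 97.9 in S+ cells, against 175 to 229.2 (median 190.0) in PreS cells. It was the member that fell (-1.39 ± 0.21, SE; limma, adjusted p = 0.0013). Ctla4, Nrp1 and Pdcd1 stood at 0.32, -0.35 and -0.45 and did not pass. The list median was 1.47, 1.36 and 1.50 in the 3 S+ arrays.

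**Figure D3:**
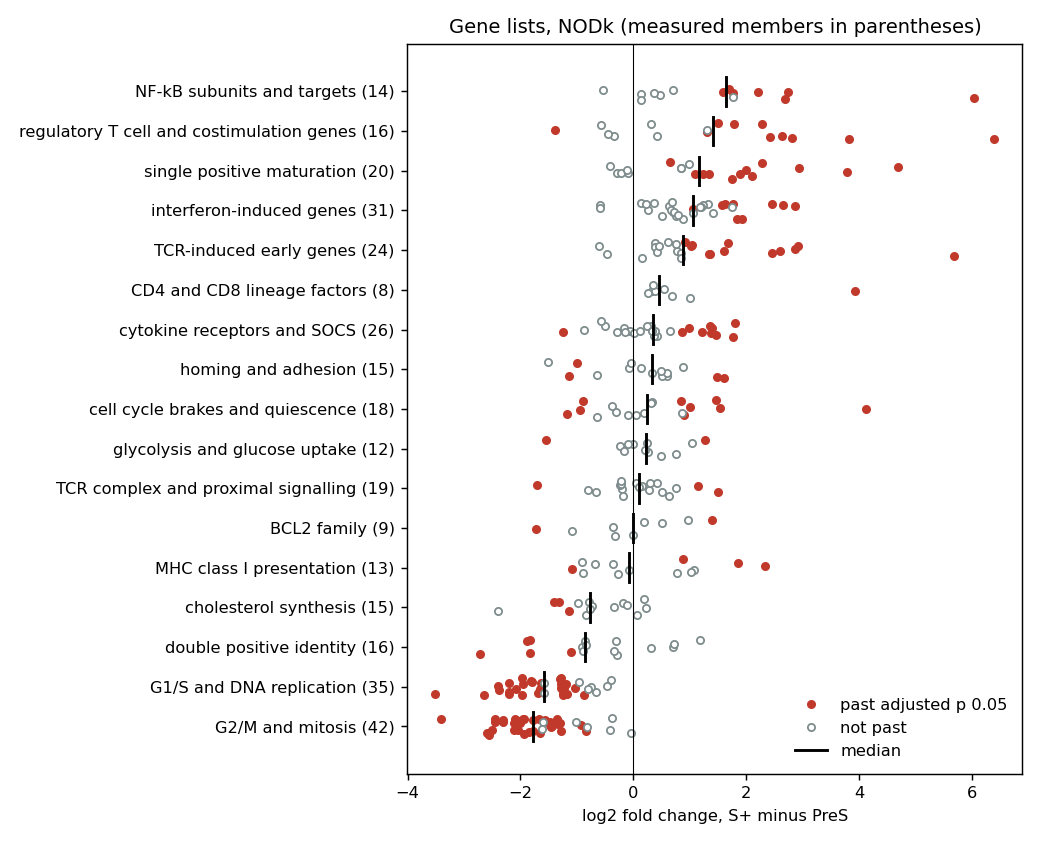
Log2 fold change (S+ minus PreS, NODk) of each measured member of 17 gene lists, filled where the member passed limma's adjusted p of 0.05 and open where it did not, with the list median as a bar. The G2/M list (median -1.78) and the G1/S list (-1.58) lie below 0 throughout, and the NF-kB list (1.64) has the highest median.

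Genes of the G1/S transition and DNA replication fell in 27 of 35 cases and none rose (median -1.58), and all 35 fold changes were negative. Over all genes 8.40% fell and 6.79% rose. Cdc6, which loads the replicative helicase, had 80.6, 65 and 79.6 in S+ cells, against 274.5 to 553.1 (median 317.95) in PreS cells. Ccne2, an E-type cyclin, had 48.4, 50.4 and 24.4 in S+ cells, against 83.4 to 236.8 (median 208.7) in PreS cells. Tk1, thymidine kinase, had 50.9, 49 and 150.1 in S+ cells, against 240.1 to 734.9 (median 368.45) in PreS cells. No S+ array overlapped PreS, and the log2 fold changes were -2.38 ± 0.25, -2.39 ± 0.35 and -2.65 ± 0.42 (SE; limma, adjusted p = 1.4e-04, 9.7e-04 and 0.0017). Tk1 was highest among S+ arrays in replicate 3 and Ccne2 lowest. The 8 members that did not pass included Mcm7, Dnmt1 and Cdk2, at -0.39, -0.47 and -0.81. With S+ replicate 3 alone the median was -1.19 and 4 passed.

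Genes of G2/M and mitosis fell in 35 of 42 cases and none rose (median -1.78), again with 42 negative fold changes. The shares over all genes were 8.40% and 6.79%. Bub1b, a spindle checkpoint kinase, had 64.5, 59.4 and 126.2 in S+ cells, against 317.1 to 582.9 (median 410.25) in PreS cells. Ube2c, an enzyme of the anaphase-promoting complex, had 109.2, 81.5 and 432.5 in S+ cells, against 612.4 to 1189 (median 782.35) in PreS cells. Kif20a, a kinesin of cytokinesis, had 33.9, 22.2 and 69 in S+ cells, against 108.8 to 280.1 (median 165) in PreS cells. The S+ arrays were below PreS in each, and the log2 fold changes were -2.55 ± 0.29, -2.51 ± 0.46 and -2.45 ± 0.39 (SE; limma, adjusted p = 2.0e-04, 0.004 and 0.0019). Cdk1, the mitotic kinase, had 160.3, 124.5 and 372.3 in S+ cells, against 509.9 to 1271 (median 695.45) in PreS cells. Cdk1 fell by 2.05 ± 0.39 on the log2 scale (SE; limma, adjusted p = 0.0046). Mki67, the proliferation marker, had 581.7, 496.7 and 432 in S+ cells, against 575.5 to 2361 (median 850.45) in PreS cells. These PreS signals were 2360.6, 960.9 and 1685.7 in TCR mice and 575.5, 615.4 and 740 in TCR insHEL mice. On the standardized values the groups did not overlap, but the log2 fold change of Mki67 was -1.02 ± 0.38 and did not pass (SE; limma, adjusted p = 0.09). Relative to the PreS mean the list median was -1.59, -2.24 and -1.54 in S+ replicates 1 to 3 and lay between -0.28 and 0.40 in the PreS arrays. With S+ replicate 3 alone 14 of the 42 passed.

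Promoters of mitotic genes are known for a pair of elements, the cell cycle homology region and the CCAAT box, and windows are shown for members that fell. The letters TTTGAA, on either strand, were present in 25 of the 35 members with a window (71.4%), against 20.2% of all genes, or in 73.0% of the members' windows against 17.9% of all windows, and capitals mark the match, which reads TTCAAA where it lies on the other strand.
Bub1b, chr2:118598231-118598260 (+): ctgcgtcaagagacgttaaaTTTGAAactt
Ube2c, chr2:164769888-164769917 (+): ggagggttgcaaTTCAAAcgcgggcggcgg
Ncapg, chr5:45669883-45669912 (+): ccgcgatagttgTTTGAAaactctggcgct
The letters CCAAT were present in 28 of the 35 (80.0%), against 41.1% of all genes, or in 81.1% of the members' windows against 37.4% of all windows, and are marked here, on the printed strand or as ATTGG.
Bub1, chr2:127831884-127831913 (-): ccgcagcggagaCCAATagtcaggcgcgct
Bub1b, chr2:118598086-118598115 (+): gctaggacaaccATTGGtccttgcacctca
Ube2c, chr2:164769860-164769889 (+): agcgagcctttgATTGGctagcgcagcggg
Of the 30 members with a window that fell, 20 held TTTGAA and 23 held CCAAT.

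Among brakes of the cell cycle 6 of 18 rose and 3 fell (median 0.25), where the shares over all genes were 6.79% and 8.40%. Slfn1 was the largest rise. Foxp1, a factor of naive T cell quiescence, had 834.7, 606 and 651 in S+ cells, against 182.2 to 308.9 (median 217.5) in PreS cells. Ezh1, a methyltransferase of Polycomb, had 366.9, 424.7 and 379 in S+ cells, against 77.3 to 193.1 (median 139.25) in PreS cells. Both were apart from PreS, at 1.53 ± 0.24 and 1.46 ± 0.26 on the log2 scale (SE; limma, adjusted p = 0.0014 and 0.0033). Cdkn2c, an inhibitor of CDK4 and CDK6, had 482.9, 252.6 and 664.2 in S+ cells, against 768.5 to 1052 (median 986.15) in PreS cells. It fell by 1.18 ± 0.34 (SE; limma, adjusted p = 0.036), and Cdkn1a and Cdkn1b did not pass, at 0.33 and -0.10. The list median was 0.46 and 0.19 in S+ replicates 1 and 2 and -0.16 in replicate 3. Without S+ replicate 1 or 2, 4 and 3 members rose and none fell, and with S+ replicate 3 alone none passed in either direction.

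In metabolism 3 of 15 genes of cholesterol synthesis fell and none rose (median -0.76), where the shares over all genes were 8.40% and 6.79%. In glycolysis 1 of 12 genes rose and 1 fell (median 0.22), counts too small to set apart from these shares. Cyp51, a demethylase of lanosterol, had 154.5, 105.8 and 136.6 in S+ cells, against 240.3 to 412.3 (median 319.55) in PreS cells. Idi1, an isomerase of the isoprenoid steps, had 119.6, 115.1 and 122.7 in S+ cells, against 178.3 to 454.9 (median 253.9) in PreS cells. Sqle, squalene epoxidase, had 93.9, 69.7 and 107.7 in S+ cells, against 108.7 to 265.7 (median 179.75) in PreS cells. All 3 were below PreS in every S+ array, with log2 fold changes of -1.40, -1.32 and -1.13 (limma, adjusted p = 0.0028, 0.0056 and 0.018). Slc2a3, a glucose transporter, had 1135, 880.5 and 708.1 in S+ cells, against 299.9 to 489.2 (median 353.6) in PreS cells. Tpi1, triosephosphate isomerase, had 335.9, 352.2 and 407.7 in S+ cells, against 690.9 to 1392 (median 1038) in PreS cells. For cholesterol synthesis the list median was -0.56 and -0.83 in S+ replicates 1 and 2 and -0.16 in replicate 3, which as the only S+ array left none past the threshold. Leaving out replicate 1, 2 or 3 gave 2, 2 and 7 that fell, and with the ratio as a term the median was -0.43 and 5 fell. The glycolysis genes Slc2a3 and Tpi1 rose by 1.28 and fell by 1.54 on the log2 scale, without overlap (limma, adjusted p = 0.0043 and 0.0024).

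**Figure D4:**
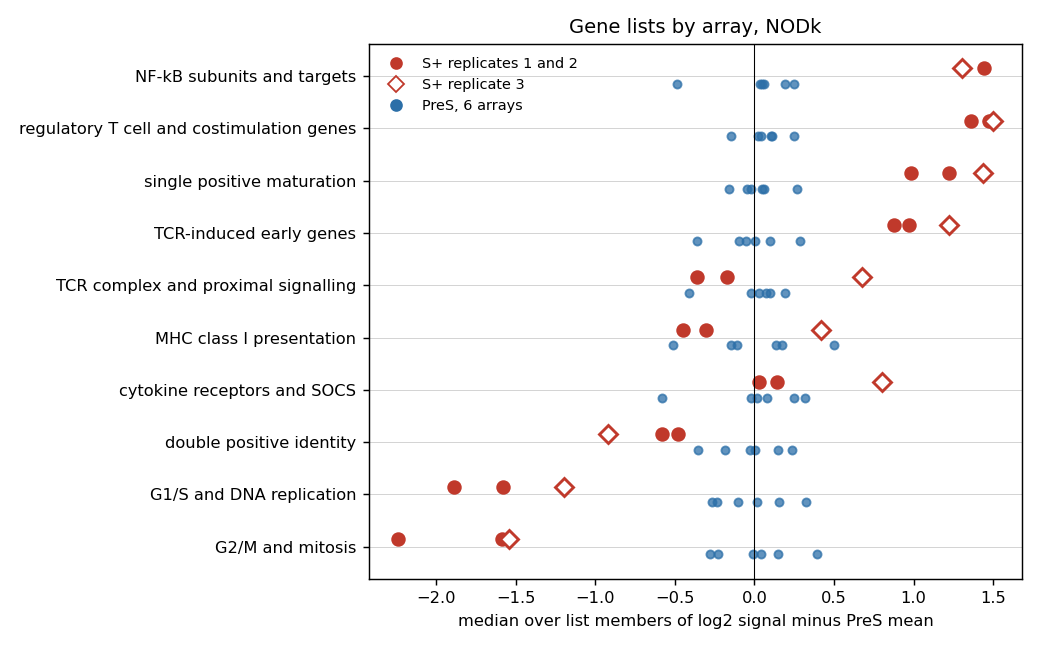
Median over list members of the log2 signal minus the PreS mean (horizontal axis) in each NODk array, S+ replicates 1 and 2 as filled red circles, S+ replicate 3 as an open red diamond and PreS arrays as blue circles. The S+ arrays lie together for the regulatory T cell list (1.36 to 1.50) and the NF-kB list (1.30 to 1.44), and apart for TCR complex and proximal signalling (-0.36 to 0.68).

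Markers of other cells moved with the groups in part. The summed signal of 11 measured myeloid and dendritic markers was 4221 to 4842 in S+ arrays and 1369 to 2655 in PreS arrays, all 11 had a positive log2 fold change, and 4 passed (2 without S+ replicate 1 or 2, and none with S+ replicate 3 alone). Csf1r, the receptor for macrophage colony-stimulating factor, had 654.4, 439.6 and 182.4 in S+ cells, against 42.6 to 95.1 (median 80.35) in PreS cells. The other members that passed were Ctss, Adgre1 and Itgax, at 2.19, 1.12 and 1.07. Over all genes 6.79% rose and 8.40% fell. Itgam stood at 0.6 to 19.0 in S+ and 1.2 to 7.4 in PreS arrays, and Fcer1g at 9.0 to 39.6 and 1.2 to 22.5. Neither met the filter, and Lyz2, which was measured, did not pass (0.50). Summed signals of B cell markers were 1991 to 3025 in S+ and 3532 to 8124 in PreS, with Pax5 at 1.4 to 6.0 in S+ and 1 of 5 lower (Cd79b). The median log2 fold change of these 5 was 0.50, with 3 of them positive, so that it ran opposite to the sum. For thymic epithelial markers the sums were 109 to 202 and 92.9 to 156.4, with 0 of 4 past the threshold, and for NK and NKT markers 119.9 to 147.1 and 36.3 to 119.3, with 0 of 2. For erythroid markers they were 68.8 to 123.6 in S+ and 36.3 to 56.7 in PreS, with Gata1 higher and Hba-a1 at 10.7 to 23.4 in S+. Ccl22, Cd83 and Birc3 in the NF-kB list are also expressed by dendritic cells, and the part of such cells in these results was not tested.

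In B10k, where 3 S+ and 6 PreS arrays were compared in the same way, 647 genes (8.26%) were higher and 772 (9.86%) lower. Of the genes higher in NODk 296 were also higher in B10k, 55.6% of the NODk and 45.7% of the B10k genes, and 389 were lower in both, 59.1% and 50.4%. The exception in direction was Ccl5, higher in NODk S+ cells and lower in B10k S+ cells. The change itself differed between strains for 46 of 12838 probesets (0.358%) at limma's adjusted p under 0.05, with 1135 at an unadjusted p under 0.05. By gene, the change was more positive in NODk for 31 (0.396%) and more negative for 5 (0.0638%).

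Of these 31 genes 28 fell in B10k S+ cells, 11 fell in NODk, 16 did not pass in NODk and 4 rose there, and 7 belong to the cell cycle lists. NODk S+ arrays were wholly above B10k S+ arrays for 26 of the 31. The 31 were chosen on these same arrays by a difference in this direction, so that this count follows in large part from the choice. E2f8, a repressor of the E2F family that is itself expressed in S phase, had 512, 318.2 and 175.9 in NODk S+ cells and 527.1 to 1252 (median 923.05) in NODk PreS cells, against 85.5, 19.9 and 31.4 in B10k S+ cells and 561.5 to 1339 (median 1118) in B10k PreS cells. Sgo1, which protects sister chromatid cohesion, had 138.5, 69.2 and 111.6 in NODk S+ cells and 338.5 to 416.9 (median 381.75) in NODk PreS cells, against 7.2, 5.1 and 28.9 in B10k S+ cells and 287.6 to 409.4 (median 377.25) in B10k PreS cells. Between strains the change differed by 3.26 ± 0.56 for E2f8 and 3.18 ± 0.52 for Sgo1 on the log2 scale (SE; limma, adjusted p = 0.0094 and 0.0073). B10k S+ signals lay in part below 32 here, so that these sizes are not exact. Mki67 had 581.7, 496.7 and 432 in NODk S+ cells and 575.5 to 2361 (median 850.45) in NODk PreS cells, against 52.5, 110.5 and 128.7 in B10k S+ cells and 921.5 to 1900.5 (median 1195) in B10k PreS cells. Cdc6, with B10k S+ signals below 32 as well, and Mki67 differed by 2.38 and 2.80 (limma, adjusted p = 0.022 and 0.011), and PreS signals were of the same order in both strains. Over the G2/M list the log2 fold change was less negative in NODk for 40 of 42 genes (medians -1.78 in NODk and -3.20 in B10k), with the difference past the threshold in 5. Over the G1/S list it was less negative for 30 of 35 (-1.58 and -2.33), with 2 past, and over all 7831 genes 3923 were higher in NODk, with 36 past.

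Other genes whose difference passed were Cdkn1a, an inhibitor of cyclin-dependent kinases, Wee1, a kinase that holds CDK1 inactive, and Cxcr4, the chemokine receptor of cortical thymocytes. Their log2 fold changes were 0.33, 0.0056 and -0.84 in NODk, none past the threshold, against -2.35, -2.19 and -3.15 in B10k. Dock9, an activator of the GTPase CDC42, had 434.5, 281.7 and 256.5 in NODk S+ cells and 18.5 to 40.1 (median 29.85) in NODk PreS cells, against 64.2, 49.8 and 35.1 in B10k S+ cells and 18.4 to 50.9 (median 29.1) in B10k PreS cells. Rnf157, a ubiquitin ligase, had 295.1, 346 and 189.1 in NODk S+ cells and 143.6 to 304.4 (median 223.75) in NODk PreS cells, against 45, 17.1 and 29.6 in B10k S+ cells and 150.7 to 352.6 (median 265.35) in B10k PreS cells. Dock9 rose in NODk and did not pass in B10k, and Rnf157 did not pass in NODk and fell in B10k, with differences of 2.81 ± 0.44 and 3.46 ± 0.44 (SE; limma, adjusted p = 0.0054 and 6.1e-04). Ccl5, a chemokine of activated T cells and other leukocytes, had 347, 129.3 and 85.6 in NODk S+ cells and 18.3 to 58.2 (median 33.6) in NODk PreS cells, against 9.6, 11.7 and 40.7 in B10k S+ cells and 29.1 to 60.9 (median 40.65) in B10k PreS cells. Hes5, a target of NOTCH, had 121.5, 159.9 and 75.9 in NODk S+ cells and 14.9 to 97.9 (median 48.8) in NODk PreS cells, against 4.2, 6.9 and 6.8 in B10k S+ cells and 11.3 to 53.6 (median 23.75) in B10k PreS cells. The differences were 3.56 ± 0.72 and 3.46 ± 0.68 (SE; limma, adjusted p = 0.024 and 0.022), and they too rest in part on B10k S+ signals below 32. Ptcra had 52.3, 85.1 and 115.1 in NODk S+ cells and 91.1 to 159.6 (median 138.15) in NODk PreS cells, against 67.1, 22.8 and 34.1 in B10k S+ cells and 221 to 492.8 (median 325.7) in B10k PreS cells. Here the B10k PreS signals were above the NODk PreS signals without overlap, and the difference in change was 2.31 ± 0.45 (SE; limma, adjusted p = 0.022).

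More negative in NODk were Ckb, Gimap3, Pfdn5 and Lad1, with G0s2 below the signal asked for in naming genes. Ckb, a creatine kinase, had 80.9, 54.9 and 47.9 in NODk S+ cells and 35.2 to 60.5 (median 46.65) in NODk PreS cells, against 555.4, 723.8 and 880.6 in B10k S+ cells and 107.1 to 265.1 (median 143.9) in B10k PreS cells. Gimap3, a GTPase of lymphocyte survival, had 222.3, 181.9 and 255.3 in NODk S+ cells and 72.2 to 112.3 (median 84.9) in NODk PreS cells, against 970.6, 673.4 and 875.8 in B10k S+ cells and 103.9 to 167.3 (median 127.75) in B10k PreS cells. Ckb did not pass in NODk, Gimap3 rose in both strains, and the differences were -2.06 ± 0.37 and -1.39 ± 0.28 (SE; limma, adjusted p = 0.011 and 0.022). Pfdn5, a subunit of prefoldin, had 183.4, 208.9 and 430.7 in NODk S+ cells and 442.2 to 785.2 (median 561.35) in NODk PreS cells, against 502, 671.4 and 770.2 in B10k S+ cells and 376 to 733.3 (median 499.35) in B10k PreS cells. Lad1, a filament-associated protein, had 64.9, 63.2 and 71.3 in NODk S+ cells and 31.6 to 53.2 (median 39) in NODk PreS cells, against 222.4, 132.7 and 236.5 in B10k S+ cells and 33.4 to 51 (median 41.85) in B10k PreS cells. Their differences were -1.64 ± 0.36 and -1.60 ± 0.32 (SE; limma, adjusted p = 0.047 and 0.024).

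Other values also differed between the S+ arrays of the strains. The ratio of the controls was 2.49 to 55.7 for Actb in NODk and 1.92 to 8.89 in B10k. For Gapdh it was 3.63 to 57.2 in NODk and 3.15 to 29.4 in B10k, where S+ replicate 1 was the highest. The summed signal of myeloid and dendritic markers was 4221 to 4842 in NODk S+ and 1879 to 3434 in B10k S+ arrays, and their median log2 fold change was 0.87 in NODk and -0.37 in B10k. Without NODk S+ replicate 1, 2 or 3 the number of probesets that differed between strains was 15, 23 and 346. Of the 46 that differed with all arrays, 15, 21 and 46 still passed with the same sign in these 3 fits. Without both S+ replicates 1 and 2 all 46 kept the sign of the difference, which does not say how many would pass. S+ replicate 3 is also part of the fit that chose them. The part of these values in the differences was not tested.

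**Figure D5:**
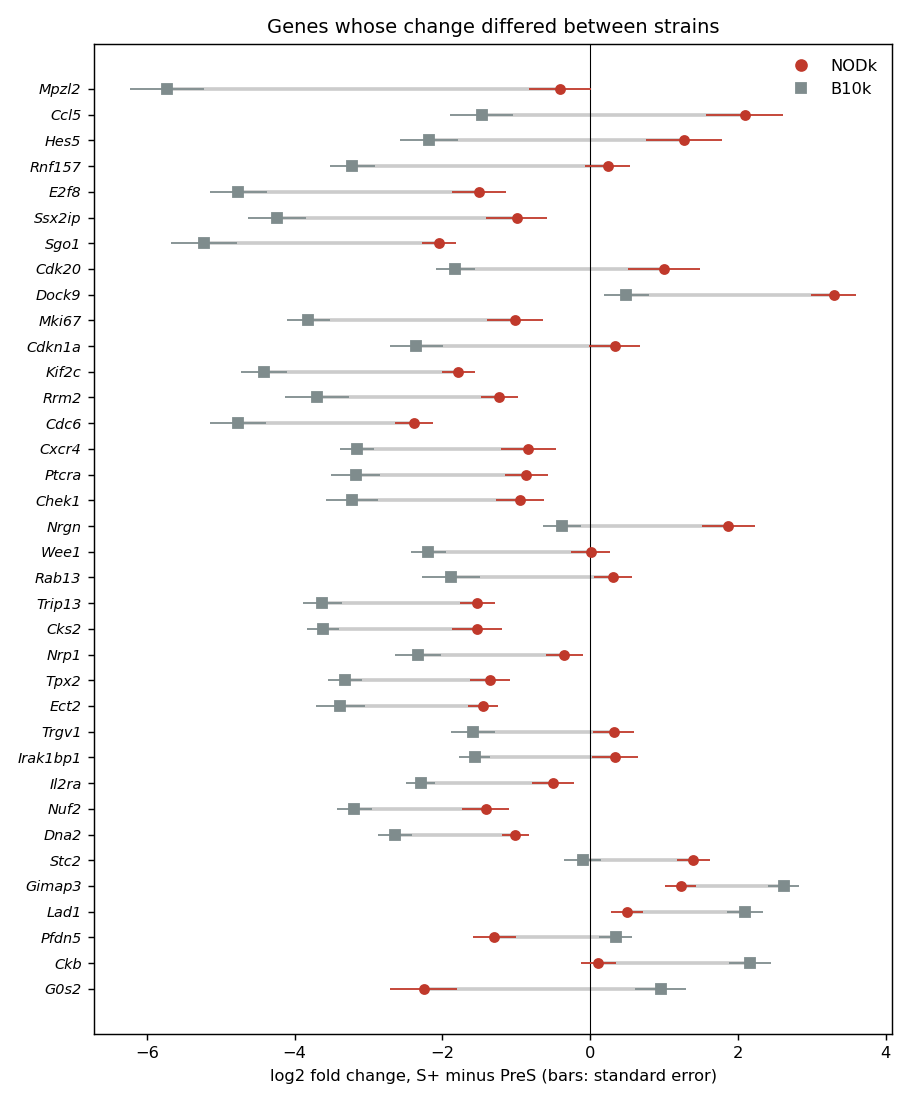
Log2 fold change of S+ minus PreS (horizontal axis, bars are the standard error) in NODk (red circles) and B10k (grey squares) for the 36 genes whose change differed between strains in limma. The upper 31 genes are more positive in NODk, such as Dock9 (3.30 and 0.49), and the lower 5 more negative, such as Gimap3 (1.23 and 2.62).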

How the data were processed

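RNA of sorted, pooled NODk and B10k thymocytes was amplified in 2 rounds and hybridized to Affymetrix 430A arrays of 1 lot. The deposited values are intensity values on a linear scale, MAS 5.0 signals that the authors computed from the scans with a target of 150 for the trimmed mean. Of 22690 probesets 64 controls were removed and 33 zeros were replaced by 0.1. Each array's log2 values were given the same mean and variance. A probeset was kept if at least 1 condition had all 3 arrays at 32 or more. Of 22626 probesets 20380 had 1 gene symbol, 691 several and 1555 none, and 20351 symbols were matched to RefSeq by gene identifier, with the probeset of highest mean signal standing for its gene.

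Groups came from the sample labels. Moderated tests were run with limma 3.58.1 in R 4.3.3 over 12 NODk arrays (3 S+, 6 PreS and 3 S- arrays, which add to the estimate of spread), and over 24 arrays for the difference between strains, with Benjamini-Hochberg adjustment over all probesets kept. The code was tested on simulated data. Python 3.11.15, pandas 2.3.3, numpy 2.4.6 and matplotlib 3.10.9 were used for the rest. Replicate numbers were not treated as pairs, since arrays of the same number had deviations that correlated at 0.085 on average (-0.30 to 0.63). The design text calls the 3 arrays per group biological replicates, and p-values measure the spread between these pools.

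The members and gene lists were chosen with earlier results of these data known. Genes named were the 12 largest rises and falls past the threshold with no overlap and a mean signal of at least 100, up to 4 members of each list by the same minimum, a set of genes with known roles in selection or named by the study, and up to 6 genes on each side by the difference between strains. All other genes named were chosen after their values were seen. Alternatives were the methods' t-test, MAS 5.0 scaling alone, quantile normalization, a floor of 16, no filter and a filter at 64, blocks, array weights, other sets of arrays, each replicate left out and the 3′/5′ ratio as a covariate. Leaving out the 3 NODk arrays of highest ratio, and the ratio and S+ alternatives for the strain difference, were added after seeing the data.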

Additional observations from a re-analysis of the deposited data

Results flagged for a closer look

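Among the 6 PreS arrays, 1 array stood far from the other 5 (Dixon's 95% criterion) for 4 of 96 sets of PreS values examined (93 genes and 3 measures of the control ratio), where chance alone gives about 1 in 20. TCR insHEL replicate 1 was the lowest of the PreS arrays for H2-D1 at 37.8, Tapbp at 37.1 and Itgb2 at 424.9. TCR insHEL replicate 2 was the highest for Irf4 at 11.4, a signal below the filter.

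The change between S+ and PreS cells differed between strains by limma for 36 genes in all, of which the 13 chosen by the naming rules are given here as the log2 fold change in NODk minus that in B10k. It was more positive in NODk by 3.56 for Ccl5, 3.46 for Hes5, 3.46 for Rnf157, 3.26 for E2f8, 3.18 for Sgo1, 2.81 for Dock9, 2.80 for Mki67, 2.38 for Cdc6 and 2.31 for Ptcra. It was more negative for Ckb (-2.06), Pfdn5 (-1.64), Lad1 (-1.60) and Gimap3 (-1.39).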

How the results depend on the processing

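Of 787 higher and 1112 lower probesets, the counts became 443 and 628 with no filter (of 22626 probesets), 1673 and 2380 with array weights, 506 and 706 with only the 9 S+ and PreS arrays, 1202 and 1616 with all 24 arrays, 425 and 416 with PreS of TCR mice only, 1203 and 1431 with the 3′/5′ ratio as a covariate, 101 and 105 without the 2 S+ arrays of highest ratio, and 187 and 150 without the 3 NODk arrays of highest ratio, an alternative added after seeing the data. With the hybridization day as a block they were 4 and 1, which rests on 1 day with both groups, and as a random block 769 and 1093. Leaving out 1 array gave 344 to 1160 and 376 to 1886, and the replicate block gave 820 and 1253. Of the 86 named genes past the threshold none reversed in these alternatives, though each alternative shares arrays with the fit that chose the genes. The number that no longer passed was 83 with the day as a block, 56 without the 2 S+ arrays, 17, 21 and 2 without S+ replicate 1, 2 or 3, and 0 with the replicate block. The 4 probesets that differed between TCR insHEL and TCR PreS cells became 0 with no filter, 2 with a filter at 64, 0 with the replicate block and 0 to 13 when 1 array was left out. The 46 that differed between strains became 25 with no filter, 105 with the ratio as a covariate, 18 without the 2 S+ arrays, 52 with the replicate block and 15 to 346 when 1 array was left out. The cause of these shifts was not tested. Signals near 32 or below in 1 group limit the size of every fold that rests on them, such as those of Gpr83, Bcl3, Irf4, Cd7, Bach2 and Ccr7.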
